A study of Mus musculus with 4 samples.

Results

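The 10 genes described here code for proteins of granulocyte and mast cell granules or for membrane proteins of the same cells, and they were picked by name from the 32285 genes in the count tables. Elane, Prtn3, Ctsg, Mpo and Ms4a3 form the neutrophil-type group, and Cma1, Mcpt4, Cpa3, Gzmb and Ms4a2 form the mast-type group. They were read in single cells of the aorta-gonad-mesonephros region (AGM), the place in the mouse embryo where definitive haematopoietic stem cells arise. CD31+ AGM cells of C57BL/6J mouse embryos at E11.5 were sorted with TMRM, a dye that collects in mitochondria with a high membrane potential, into MMPlow cells (2 libraries) and MMPhigh cells (2 libraries), and no other allele or treatment is labelled in either group. The labels do not say whether the 2 libraries of a group came from separate embryos or pools, so every p-value below measures the spread between libraries, which may be technical. Each value is a number of unique molecular identifiers (UMIs), and a level is given as CPM, a gene's UMIs scaled to 1000000 UMIs summed over the named cells of a library.

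Neutrophils store elastase, proteinase 3, cathepsin G and myeloperoxidase in their primary granules, which are filled at the promyelocyte stage, before the genes of the secondary granules such as Ltf and Ngp come on. Mast cells and their progenitors make the carboxypeptidase Cpa3 and the beta chain of the high-affinity IgE receptor, Ms4a2, while their chymases Cma1 and Mcpt4 mark later, tissue-resident stages. In the mid-gestation embryo such genes are known from myeloid progenitors and early granulocytes that derive from the yolk sac and the AGM, and Mpo and Cpa3 are also known from multipotent and myeloid progenitors before granules form.

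Several of the genes are neighbours in the genome, whichever group they belong to. In the RefSeq annotation of GRCm38.p6, the serine protease genes Prtn3 (chr10:79879667-79883174) and Elane (chr10:79886312-79888216) lie on the plus strand, 3137 bases apart with no annotated gene between them. Ms4a2 (chr19:11615517-11623790) and Ms4a3 (chr19:11629499-11640851) lie on the minus strand, 5708 bases apart and also with no gene between them, although one is counted as mast-type and the other as neutrophil-type. Ctsg (chr14:56099885-56102574) sits inside the mast cell protease locus, 37574 bases from Mcpt4 (chr14:56059744-56062310) and 156261 bases from Gzmb (chr14:56258836-56262334). Cma1 (chr14:55941451-55944675) lies at the other end of the locus, 115068 bases from Mcpt4. Mpo (chr11:87793784-87804412) and Cpa3 (chr3:20215616-20242209) stand alone. The bases just before the start of transcription are shown for the neighbours Prtn3 and Elane, for Ms4a3 and for Cpa3, because the cells that hold these genes are the subject of what follows. Capitals mark the letters GGAAGT in the neutrophil-type genes and GATAA in Cpa3. Both were searched on both strands and were picked after the sequences had been read.
Prtn3 (GRCm38.p6, chr10:79879547-79879666, plus strand): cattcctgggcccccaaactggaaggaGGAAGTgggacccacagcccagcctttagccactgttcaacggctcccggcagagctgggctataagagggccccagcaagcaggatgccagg
Elane (GRCm38.p6, chr10:79886192-79886311, plus strand): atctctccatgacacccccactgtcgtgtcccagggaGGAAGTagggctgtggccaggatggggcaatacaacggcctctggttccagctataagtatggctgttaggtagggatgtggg
Ms4a3 (GRCm38.p6, chr19:11640852-11640971, minus strand): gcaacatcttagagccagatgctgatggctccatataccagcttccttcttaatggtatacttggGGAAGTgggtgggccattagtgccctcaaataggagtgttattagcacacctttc
Cpa3 (GRCm38.p6, chr3:20242210-20242301, minus strand): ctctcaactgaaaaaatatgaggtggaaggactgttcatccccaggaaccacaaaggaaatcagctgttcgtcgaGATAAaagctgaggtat
In the 120 bases before the start, GGAAGT was present in Elane, Prtn3 and Ms4a3 and in 11.6% of 32851 promoters of the RefSeq table. It began 83, 93 and 55 bases before the start, in that order. GATAA was present in the same window of Mcpt4, Cpa3 and Ms4a2 and in 10.5% of all promoters. For Ms4a2, 71 of the 120 bases lie inside the gene's annotated span, and the 49 bases outside it hold no GATAA. For Cpa3, 28 bases lie inside and are not shown, and the match is outside. A match is a description of the letters, not of a bound site.

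The 4 libraries differ in depth and make-up, and this bears on every comparison between them. Of 101870 deposited barcodes, 43102 were retained (at least 2000 UMIs and 1000 genes, under 25% mitochondrially encoded UMIs, doublet calls removed). Of these, 16698 came from MMPlow 1, 18583 from MMPlow 2, 4403 from MMPhigh 1 and 3418 from MMPhigh 2. The median cell had 3145 to 3685 UMIs in the first 3 of these and 23668.5 in MMPhigh 2. Pecam1, the gene of the CD31 antigen used for the sort, had a UMI in 53.2% and 55.0% of MMPlow cells and in 10.7% and 27.4% of MMPhigh cells. Such shares rise with depth. By level it stood at 275 and 261 CPM in MMPlow and at 24.9 and 22.0 CPM in MMPhigh. Pairs of libraries shared 7 to 87 retained barcodes, and none of them was a cell that held either gene group. The cells fell into 32 clusters, made without the 10 genes, of which 25 took names from marker genes and 7 stayed unnamed. Names ending in "-like" come from those markers. MMPhigh 1 stands apart through an unnamed cluster of 2272 cells led by Hbb-bs and neural genes, of which 2098 were its own.

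All 5 neutrophil-type genes had UMIs in all 4 libraries, and Mcpt4 of the mast-type group had none in any deposited barcode. Elane, the neutrophil elastase gene, had 260, 472, 221 and 145 UMIs in MMPlow 1, MMPlow 2, MMPhigh 1 and MMPhigh 2, or 3.88, 5.37, 5.37 and 1.35 CPM. Prtn3 stood at 65.4, 76.9, 57.0 and 41.5 CPM. Mpo, the myeloperoxidase gene, stood at 78.7, 78.8, 23.9 and 22.7 CPM. Ms4a3, which codes for a membrane protein of granulocyte-monocyte progenitors, stood at 5.97, 8.16, 5.64 and 1.97 CPM. Ctsg, the cathepsin G gene, was rare, with 13, 33, 22 and 6 UMIs. Prtn3, Mpo and Ms4a3 were thus lower in both MMPhigh libraries than in either MMPlow library, while for Elane and Ctsg the groups overlapped and the low library was MMPhigh 2. Of all 20517 genes tested, 78.2% had groups that did not overlap in CPM and 40.8% were lower in both MMPhigh libraries, while 53.7% were called in the fit given further on.

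**Figure D1:**
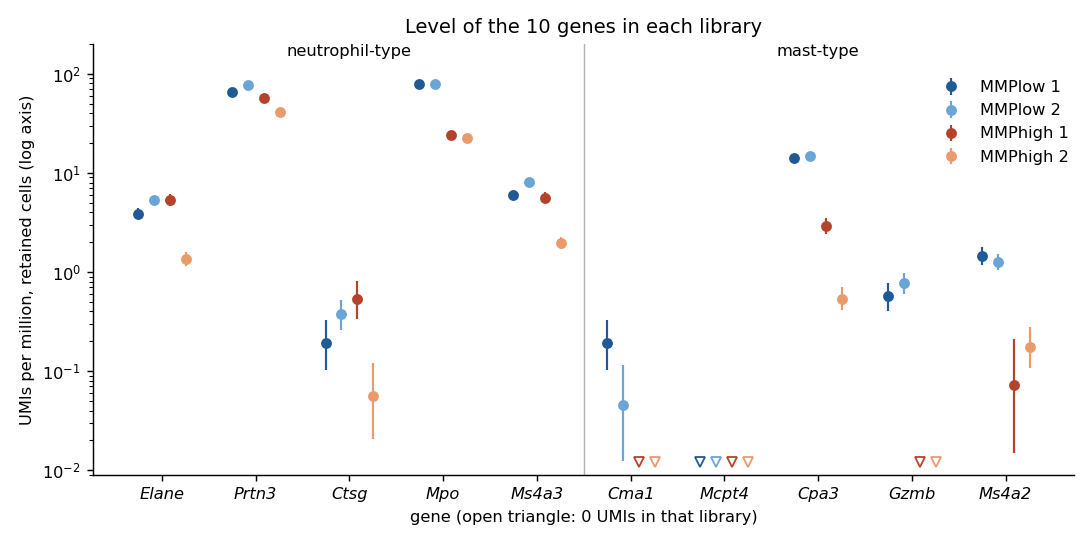
CPM over retained cells (log axis) for each of the 10 genes in each of the 4 libraries. Bars are 95% exact Poisson intervals, which cover counting error only, and an open triangle marks 0 UMIs. Prtn3, Mpo, Ms4a3, Cpa3 and Ms4a2 lie lower in both MMPhigh libraries, Gzmb and Cma1 are at 0 there, and Elane and Ctsg are low in MMPhigh 2 alone.

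The highest level of every neutrophil-type gene was in 1 small cluster. The granulocyte-like cells, 311 of the 43102 (0.722%), held 63.3% of all Elane UMIs, 60.8% of Ctsg, 52.0% of Ms4a3, 30.5% of Mpo and 24.4% of Prtn3. The 4687 macrophage-like cells held as large a share of the Prtn3 UMIs, 24.6%. The granulocyte-like cells numbered 113 and 181 in the MMPlow libraries and 5 and 12 in the MMPhigh libraries. In MMPlow 1 and 2, Elane stood at 317 and 339 CPM in these cells, against 1.46 and 2.01 in endothelial-like cells, which should lack it (median depths 2639 and 3362 against 3169 and 3637 UMIs). Mpo stood at 2692 and 2544 CPM and Prtn3 at 1784 and 2330. Of the mast-type genes, Ms4a2 had 3 UMIs and Gzmb 1 over all 311 cells, and Cma1 had none. Cpa3 stood at 13.9 and 20.7 CPM in the granulocyte-like cells of MMPlow, against 4.67 and 4.66 in endothelial-like and 291 and 248 in progenitor-like cells.

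**Figure D2:**
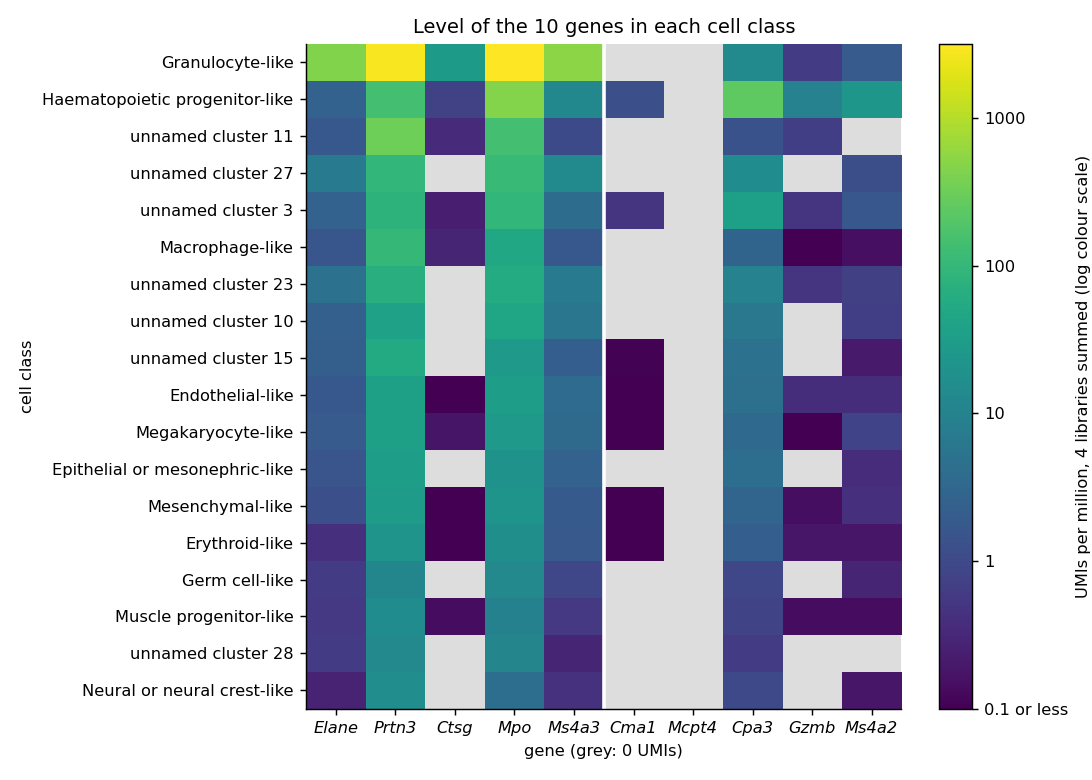
Level of each gene (columns) in each cell class (rows), as CPM over the 4 libraries summed, on a log colour scale with grey for 0 UMIs. The neutrophil-type genes are highest in granulocyte-like cells, Cpa3, Gzmb and Ms4a2 are highest in haematopoietic progenitor-like cells, and Prtn3 and Mpo have UMIs in every class.

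The few granulocyte-like cells of MMPhigh were deep and rich in these genes. The 5 cells of MMPhigh 1 had 17, 141, 378, 549 and 573 UMIs of the neutrophil-type group, and those of MMPhigh 2 had from 16 to 628. In MMPhigh 1 the cell with 549 held 79 Elane, 298 Prtn3, 100 Mpo, 70 Ms4a3 and 2 Ctsg UMIs. Elane stood at 1834 CPM in the 5 cells of MMPhigh 1 and at 394 in the 12 of MMPhigh 2, and none of the 17 cells had a UMI of a mast-type gene. These 5 cells alone gave 193 of the 221 Elane UMIs and 190 of the 232 Ms4a3 UMIs of MMPhigh 1, so the level of both genes in that library rests on them.

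Within the granulocyte-like cells nearly every cell with Elane also had Mpo and Prtn3, while Elane and Ms4a3 overlapped in part. Of 114 cells with Elane, all had Mpo, 109 had Prtn3 and 84 had Ms4a3, and each of the 10 cells with Ctsg also had Elane and Mpo. Of the 249 granulocyte-like cells that held at least 2 of the 5 genes and fewer than 2 mast-type genes, 75 had Prtn3 and Mpo only, 73 had these with Elane and Ms4a3, 50 had them with Ms4a3 alone, 26 had them with Elane alone and 10 had all 5. Elane UMIs were thus seen without Mpo in no granulocyte-like cell, at a median depth of 3082 UMIs.

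Granulocyte-like cells without Mpo were rich in secondary granule genes. This split was chosen after values had been seen, and it is given as a description, with exact binomial intervals that cover counting error only. Ltf, the lactoferrin gene, had a UMI in 22 of the 35 cells without Mpo (62.9%, interval 44.9 to 78.5%) and in 30 of the 276 with Mpo (10.9%, 7.45 to 15.2%). Ngp, another secondary granule gene, had one in 57.1% against 18.5%, and Camp in 65.7% against 33.7%. S100a8, a calcium-binding protein gene of the granulocyte cytosol, had one in 88.6% against 56.2%. The order went the other way for Srgn, the proteoglycan that packs primary granule proteins (22.9% against 72.5%), and for Ms4a3 (17.1% against 50.7%). Elane had a UMI in 0 of the 35 cells, which allows a share of up to 8.57% of cells with a UMI and sets no limit on cells that express it. The cells without Mpo were the shallower ones, with a median of 2532 UMIs against 3167, and all 35 came from MMPlow. Both MMPlow libraries showed the same order for Ltf: 58.8% against 7.29% in MMPlow 1 and 66.7% against 13.5% in MMPlow 2. Splits by other members gave a smaller contrast or none. Ltf was in 18.8% of cells without Elane and 13.2% with it, and in 26.2% without Prtn3 and 14.4% with it. Ngp was in 22.8% of cells with and without Elane, and in 22.4% without Ms4a3 and 23.3% with it. Camp went the other way by Elane, with 32.0% without it and 46.5% with it. Mki67, a gene of dividing cells, had a UMI in 82.9% of the cells without Mpo and in 77.2% of those with it. In MMPhigh, where every granulocyte-like cell had Mpo, Ltf had 0 UMIs in the 5 cells of MMPhigh 1 and 1 UMI in the 12 cells of MMPhigh 2. These are too few cells to tell from the 7.29% and 13.5% of MMPlow cells with Mpo. Mmp8, Mmp9, Retnlg, Ly6g and Chil3, genes of later neutrophils, had no UMI in the 249 granulocyte-like cells that held the neutrophil-type group. Only 4 of these 249 cells lacked Mpo. The other 62 granulocyte-like cells, which hold most of those without Mpo, are not covered by this count.

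Genes of other granulocytes were present in the same cluster. Prg2, the major basic protein of eosinophils, led its list with 573 CPM in those 249 cells, yet it was in only 51 of them. Stfa1, a cystatin-type inhibitor of cysteine proteases, led the list of inhibitors at 4819 CPM and was in 175 cells, and reads of its close copies may be split between them. S100a9, S100a8 and Camp led the secondary granule list at 5404, 4805 and 1905 CPM. Srgn, Hp and Lyz2 led the primary granule list at 1403, 1142 and 1096. Of the mast and basophil list, Hdc, Kit and Mitf led there at 153, 49.7 and 38.8 CPM, in 82, 51 and 43 of the cells, while Fcer1a, Tpsb2, Tpsab1 and Cyp11a1 had no UMI.

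Haematopoietic progenitor-like cells held Mpo with little Elane. There were 593 and 697 of them in MMPlow and 4 and 24 in MMPhigh, 3.06% of all retained cells, and they gave 16.2% of all Mpo UMIs but 1.28% of Elane UMIs. Mpo stood at 446, 460, 382 and 507 CPM in MMPlow 1, MMPlow 2, MMPhigh 1 and MMPhigh 2, so its level per UMI in the few MMPhigh cells of this class lay within or near the MMPlow range. Of the 259 progenitor-like cells that held the neutrophil-type group alone, 207 had Prtn3 and Mpo and no other gene of the group, and 9 had Elane. Their median was 4 UMIs of the group per cell, against 17 in the granulocyte-like cells. In these 259 cells Runx1, Angpt1 and Ikzf2 led the stem and progenitor list at 1210, 881 and 655 CPM, and S100a9, S100a8 and Camp stood at 61.9, 51.2 and 14.9.

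Prtn3 was set against Mpo in each class, because the 2 genes were detected together most often. In MMPlow 1, Prtn3 per Mpo UMI was 1.07 in endothelial-like cells (exact 95% interval 0.981 to 1.17), 1.07 in mesenchymal-like, 1.09 in neural and 1.07 in macrophage-like cells, and 1.12 in barcodes under 2000 UMIs. It was 0.277 in progenitor-like cells (0.238 to 0.322) and 0.663 in granulocyte-like cells (0.599 to 0.733), and in MMPlow 2 it was 0.302 and 0.916. The same other classes were less even in MMPlow 2, with 1.18 in endothelial-like (1.09 to 1.28) and 1.36 in mesenchymal-like cells. Neural cells stood at 1.38, macrophage-like cells at 1.26 and barcodes under 2000 UMIs at 0.955 (0.853 to 1.07). Nor was MMPlow 1 even over all classes. Unnamed clusters led by Gja5, Ccl5 and Ulk4 stood there at 0.644 (0.436 to 0.942), 0.720 (0.605 to 0.855) and 0.566 (0.405 to 0.784). In MMPlow 2 these clusters stood at 1.125, 1.30 and 0.956. Erythroid-like and megakaryocyte-like cells of MMPlow 1 stood at 0.890 and 1.05. The intervals of the progenitor-like cells thus lay below those of every class named so far in both MMPlow libraries. Germ cell-like cells, 30 in each MMPlow library, overlapped them, at 0.353 (0.166 to 0.699) in MMPlow 1 and 0.8 (0.159 to 3.72) in MMPlow 2. An unnamed cluster of 340 Ptprc-high cells lay at the other end in MMPlow only, with 3.48 and 4.70. In MMPhigh 1 and 2 this cluster stood at 1.99 and 1.65. Macrophage-like cells stood higher there, at 9.67 and 5.10, as did neural cells, at 6.62 and 18.2. Progenitor-like cells of MMPhigh 2 stood lower, at 0.432. The unnamed cluster was thus not at the high end in MMPhigh. The leading genes of this cluster were Mndal and Ifi203, followed by Flt3 and Il7r, genes of lymphoid progenitors, but its markers gave it no name. Its Prtn3 level was 169 and 210 CPM in MMPlow and 495 and 468 in MMPhigh, while Elane had 5 UMIs in the cluster.

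**Figure D3:**
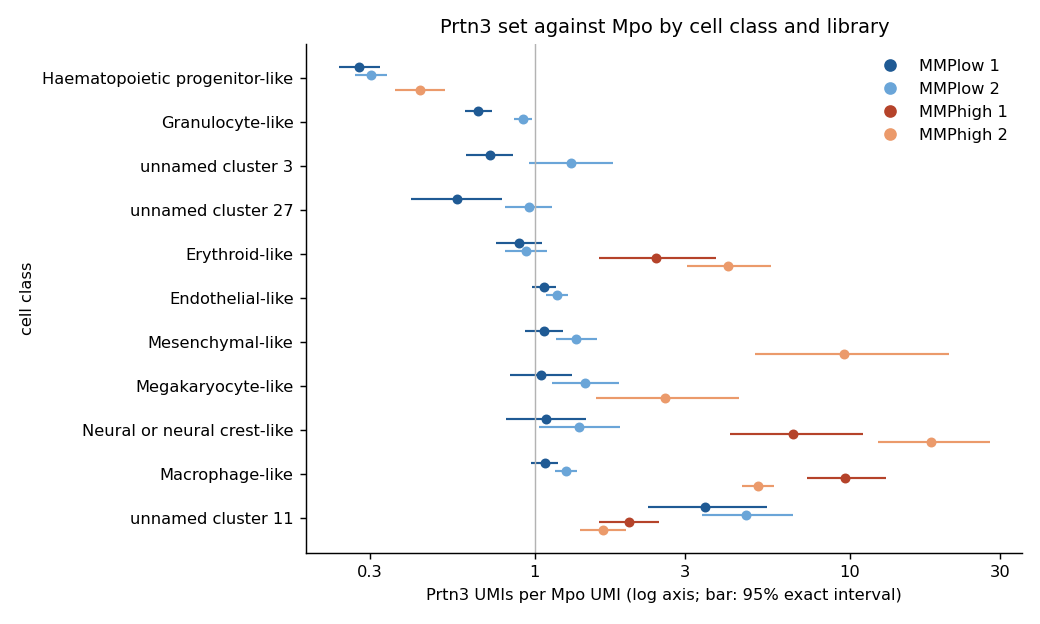
Prtn3 UMIs per Mpo UMI (log axis) in 11 cell classes, for libraries with at least 20 cells of the class and 10 Mpo UMIs; bars are exact 95% intervals for counting error. The ratio lies near 1 in most classes of MMPlow, lower in progenitor-like cells, and above 1 in every MMPhigh class shown except progenitor-like cells.

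Low Prtn3 and Mpo levels were found far outside the blood classes, mainly in MMPlow. In endothelial-like cells Prtn3 stood at 36.8 and 35.4 and Mpo at 34.3 and 30.1 CPM in MMPlow 1 and 2, with Prtn3 in 13.2% and 14.4% of cells. Neural cells of MMPlow were alike, with Prtn3 at 39.4 and 40.1 and Mpo at 36.3 and 29.0 CPM. In MMPhigh the neural cells held Prtn3 at 13.5 and 13.3 but Mpo at 2.04 and 0.731 CPM, at median depths of 7955 and 20623.5 UMIs. Shares of cells at or below those of the endothelial-like cells are not read as expression here. Macrophage-like cells of MMPlow stood above endothelial-like cells, with Prtn3 at 161 and 163 and Mpo at 150 and 130 CPM. In MMPhigh, macrophage-like cells held Prtn3 at 65.1 and 73.9 but Mpo at 6.73 and 14.5 CPM. What part free RNA has in these values was not tested.

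Counting cells by genes rather than UMIs again gave granulocyte-like cells the highest share within a class, but most of the counted cells lay elsewhere. At least 2 neutrophil-type genes and fewer than 2 mast-type genes were held by 2135 cells: 249 granulocyte-like (80.1% of that class), 259 progenitor-like (19.7%) and 1627 others. Among the 1627, 1244 held Prtn3 and Mpo alone, and 854 had only 2 UMIs of the group. In endothelial-like cells 2.20% held 2 or more of the genes, in mesenchymal-like 2.62% and in macrophage-like 9.69%. Unnamed clusters reached higher shares, with 17.9% of the 340 cells of the cluster with Flt3 and Il7r. In the Ulk4-led cluster of 701 cells the share was 13.8%. At least 4 of the 5 genes were held by 103 cells, 83 of them granulocyte-like. The others included 5 macrophage-like cells, 4 cells of an unnamed cluster led by Ulk4, Myl7 and granulocyte genes, and 4 MMPhigh 1 cells of the cluster led by Hbb-bs.

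The mast-type genes were fewer in UMIs and centred on another class. Cpa3 had 938, 1295, 120 and 58 UMIs in MMPlow 1, MMPlow 2, MMPhigh 1 and MMPhigh 2, or 14.0, 14.7, 2.91 and 0.541 CPM. Ms4a2 had 98, 112, 3 and 19 UMIs, and Gzmb, the granzyme B gene of cytotoxic lymphocytes and mouse mast cells, had 38, 68, 0 and 0. Cma1, the mast cell chymase gene, had 13, 4, 0 and 0 UMIs. Progenitor-like cells held 57.8% of the Ms4a2 UMIs, 55.6% of Cpa3, 50.9% of Gzmb and 41.2% of Cma1. Cpa3 was in 23.8% and 27.1% of the progenitor-like cells of MMPlow and in 1.69% and 2.00% of endothelial-like cells of the same libraries. Of the genes that mark a finished mast cell, Tpsb2 and Tpsab1, the tryptases, had no UMI in the progenitor-like cells of MMPlow, and Mcpt4 had none anywhere. No cluster took the name of mast cells or basophils. Their markers came second for the progenitor-like cluster, with a marker score of 0.904 against 2.02 for progenitor markers. Cpa3 and Hdc were among the leading genes of that cluster.

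The progenitor-like class of MMPhigh was too small for a comparison of mast-type levels within it. Cpa3 stood at 291 and 248 CPM in MMPlow, at 1337 in the 4 cells of MMPhigh 1 and at 51.0 in the 24 cells of MMPhigh 2. A single cell of MMPhigh 1 carried 59 of the 120 Cpa3 UMIs of its library, and an unnamed cluster led by Hbb-bs, a haemoglobin gene, held 45 more in 28 of its 2098 cells. In all, 6 MMPhigh cells had 5 or more mast-type UMIs, all of them progenitor-like. Ms4a2 stood at 30.4, 21.8, 0 and 21.7 CPM, with the 17 UMIs of MMPhigh 2 in 2 cells. Outside this class an unnamed Ccl5-led cluster stood at 21.2 CPM of Cpa3 in MMPlow 1 (63 UMIs in 30 of 575 cells) and at 70.4 in MMPlow 2 (83 UMIs in 14 of 178 cells), where 1 cell alone held 65 mast-type UMIs.

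At least 2 mast-type genes were held by 76 cells, and Cpa3 was 1 of them in every case. Of these, 53 held fewer than 2 neutrophil-type genes: 30 had Cpa3 and Ms4a2, 18 had Cpa3 and Gzmb, 2 had all 3 of these genes, and 3 included Cma1. Among these 53 cells, 45 were progenitor-like, 28 had Mpo and 6 had Prtn3. Hdc, the enzyme that makes histamine, led the mast and basophil list in these cells at 501 CPM, followed by Gata2 at 357 and Kit at 333, and Srgn stood at 1082. Gata2 and Kit are also on the stem and progenitor list. At least 3 mast-type genes were held by 5 cells, all progenitor-like.

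Both groups were held by 23 cells, 6 in MMPlow 1, 15 in MMPlow 2, none in MMPhigh 1 and 2 in MMPhigh 2. All 23 had Prtn3, Mpo and Cpa3, and 20 had Ms4a2. Elane was in 1 of them, Ms4a3 in 3 and Ctsg in none, so what they held of the neutrophil-type group was mainly Prtn3 and Mpo. This pair is not particular to progenitor-like cells. Among cells with the neutrophil-type group only, 207 of 259 progenitor-like, 75 of 249 granulocyte-like and 1244 of 1627 other cells held just the pair. Of the 23, 20 were progenitor-like, and the others were 1 neural, 1 macrophage-like and 1 of the Ccl5-led cluster. The 2 cells of MMPhigh 2 had 22 and 4 Prtn3, 99 and 118 Mpo, 11 and 1 Cpa3, and 6 and 11 Ms4a2 UMIs. The balance of the 2 genes varied: in MMPlow 2, 1 cell had 20 Mpo and 1 Cpa3 UMIs and another had 1 Mpo and 10 Cpa3 UMIs. The 23 cells were deeper than others, with a median of 8339 UMIs against 3598 in cells that held neither group. A doublet score over 0.2 was seen in 1 of them, from MMPlow 1, where Scrublet was taken not to have worked. After Scrublet's calls were removed, no retained MMPlow 2 cell scored over 0.2. The score therefore cannot tell whether these cells are doublets. Srgn and Plac8 were in all 23, at 2837 and 1343 CPM, while S100a9 and S100a8 stood at 41.7 and 19.0. No cell held 3 genes of each group.

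**Figure D4:**
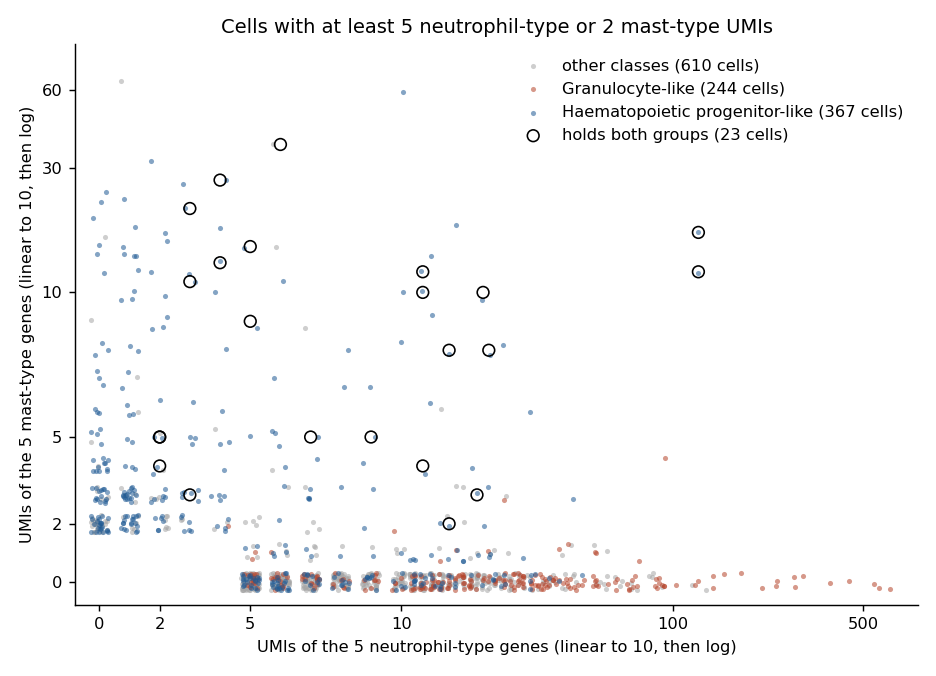
UMIs of the 5 neutrophil-type genes (x axis) against UMIs of the 5 mast-type genes (y axis), both linear to 10 and then log, for the cells with at least 5 of the first or 2 of the second; points are spread slightly so that equal values can be seen. Granulocyte-like cells reach 628 neutrophil-type UMIs along the bottom, and the 23 ringed cells with 2 or more genes of each group are nearly all progenitor-like.

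Mpo and Cpa3 overlapped within the progenitor-like class. Of its 1318 cells, 665 had Mpo, 341 had Cpa3, 202 had both and 514 had neither. Cpa3 was in 30.4% of the cells with Mpo and in 21.3% of the rest: 26.4% against 21.4% in MMPlow 1 and 33.0% against 21.1% in MMPlow 2. Cells with both genes were a little deeper (median 3592 UMIs) than cells with Mpo only (3097), Cpa3 only (3070) or neither (2918.5), and the part of depth in the difference was not tested. Of the 68 cells with Ms4a2, 53 had Mpo and 47 had Cpa3.

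Hdc, Il1rl1 and Srgn, picked after their values were seen, were higher in the cells with Cpa3 than in those with Mpo alone. In MMPlow 1 and 2 respectively, Hdc stood at 432 and 370 CPM in cells with both genes, 386 and 236 in cells with Cpa3 alone, 141 and 131 with Mpo alone and 70.3 and 75.8 with neither. Il1rl1, the IL-33 receptor of mast cells and their progenitors, stood at 132 and 100, 381 and 137, 29.7 and 29.3, and 30.3 and 34.8 in the same order. Srgn stood at 1142 and 1430, 704 and 938, 385 and 399, and 174 and 234. Siglecf, a surface receptor of eosinophils also picked after its values were seen, stood at 18.3 and 45.1 with both genes, 0 and 3.42 with Cpa3 alone, 21.9 and 26.1 with Mpo alone and 8.28 and 7.37 with neither. Other eosinophil genes had another order: over the 4 libraries Il5ra stood at 7.55 with both, 11.47 with Cpa3 alone, 8.76 with Mpo alone and 4.68 with neither, on 18 UMIs or fewer in each set. The stem cell regulators Mecom and Hlf were highest with neither gene. Mecom stood at 54.9 and 55.2 with both genes, 164 and 51.4 with Cpa3 alone, 230 and 253 with Mpo alone and 604 and 495 with neither. Hlf stood at 25.6 and 10.0, 14.5 and 10.3, 50.1 and 62.7, and 108 and 116. The groups of cells were set by the 2 genes themselves and the cells of a library share their source, so these are descriptions of 2 libraries. The summed stem and progenitor list moved little, between 5638 and 6555 CPM in the 8 sets of cells.

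**Figure D5:**
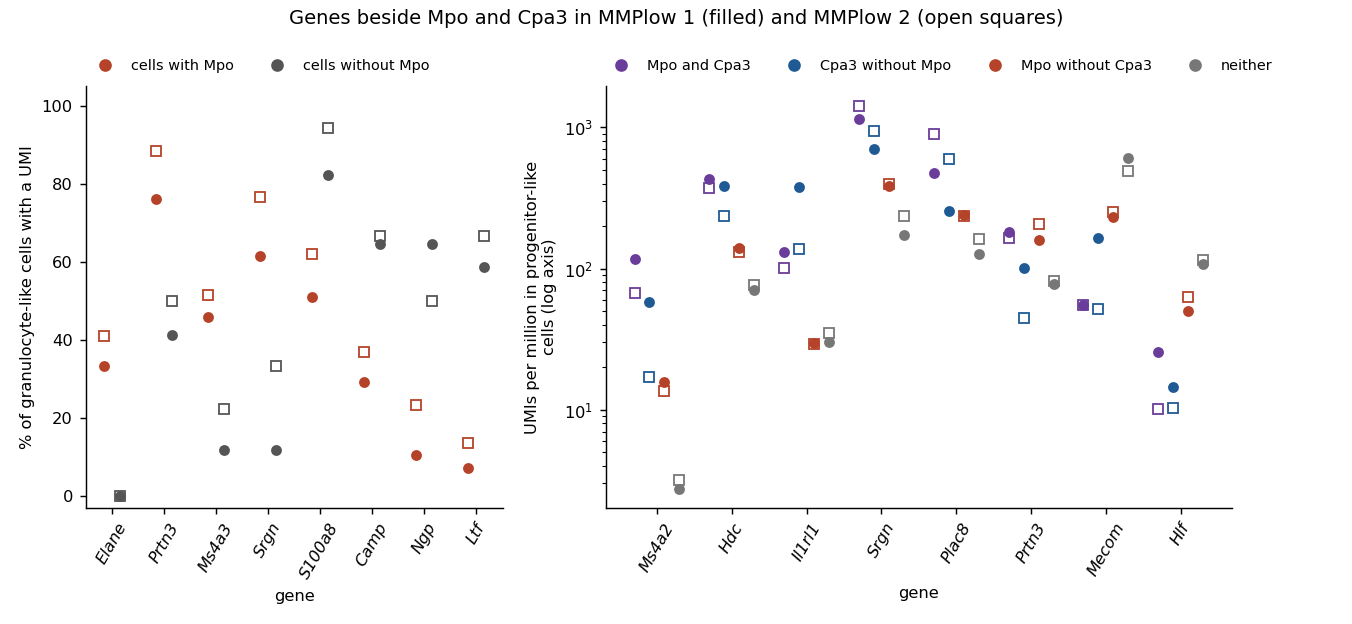
Left: share of granulocyte-like cells with a UMI of 8 genes, for cells with and without Mpo. Right: CPM (log axis) of 8 genes in progenitor-like cells split by Mpo and Cpa3. Filled circles are MMPlow 1 and open squares MMPlow 2. Ltf and Ngp are in more of the cells without Mpo, and Hdc and Srgn are highest and Mecom and Hlf lowest where Cpa3 is present.

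Few genes tracked either group over all 43102 cells. By the correlation of log levels with the summed group, only Atp8b4 (r = 0.36) and Gria3 (r = 0.31) reached 0.3 for the neutrophil-type genes and none did for the mast-type genes. All points share 4 libraries of unequal depth.

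Between the sorted fractions, 4 of the 8 genes that could be tested were lower in MMPhigh than in MMPlow. The 3 testable mast-type genes, Cpa3, Ms4a2 and Gzmb, were among them. Gzmb had 0 UMIs in MMPhigh and Ms4a2 had 3 and 19, and both passed the low-count filter through MMPlow. A gene near 0 in MMPhigh can be tested only if it is higher in MMPlow, so this count is no result about the mast-type group. Summed over all retained cells, Mpo was 78.7 ± 0.0326 CPM in MMPlow and 23.3 ± 0.837 in MMPhigh (mean ± SD, n = 2 each). Its log2 fold change was -1.72 (SE 0.0857; edgeR quasi-likelihood adjusted p = 1.19e-06). Cpa3 was 14.4 ± 0.517 and 1.73 ± 1.68 CPM (log2 -3.23, SE 0.767, edgeR adjusted p = 0.0255). Ms4a2 was 1.37 ± 0.133 and 0.125 ± 0.0737 CPM (log2 -3.21, SE 0.363, edgeR adjusted p = 0.000142). Gzmb was at 0 in both MMPhigh libraries and at least 33.8-fold lower, with the bound set by 3 counts over the group (edgeR adjusted p = 0.000147). Cma1 was also at 0 there and at least 5.43-fold lower, but had too few UMIs to be tested. With 1 library left out, the bounds ran from 9.38-fold (without MMPhigh 2) to 38.3-fold for Gzmb and from 1.505-fold (without MMPhigh 2) to 9.59-fold (without MMPlow 2) for Cma1, which had 13 of its 17 UMIs in MMPlow 1. In the same fit 53.7% of the 20517 genes tested were called and 26.5% were called as lower in MMPhigh (27.2% as higher; 59.4% had an unadjusted p under 0.05), so a call is common in this fit. A sum over a library cannot tell fewer cells of a type from less RNA per cell.

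The other 4 neutrophil-type genes were not called in that fit. Their log2 fold changes were -0.50 for Prtn3 (edgeR adjusted p = 0.0606), -0.50 for Elane (0.590), -0.92 for Ms4a3 (0.234) and -0.31 for Ctsg (0.822). For Elane, Ms4a3 and Ctsg the result turned on MMPhigh 1 and on the granulocyte-like cells, and for Prtn3 on several choices. Without MMPhigh 1, which leaves 1 MMPhigh library, Elane was at -1.76, Ms4a3 at -1.83, Ctsg at -2.33 and Prtn3 at -0.76. Without MMPhigh 2, Elane was at 0.26 and Ctsg at 0.92, and neither was called. Leaving out the 311 granulocyte-like cells, an alternative added after seeing the data, moved Elane to -2.60 and Ms4a3 to -2.97, and 8 of 8 members and 53.8% of all genes were called. Prtn3 was called in 8 of 13 alternatives, with the replicate block among them (edgeR adjusted p = 0.0376). The Cpa3 call was lost without MMPlow 1 (edgeR adjusted p = 0.214) or MMPlow 2 (0.105), with the replicate number as a block (0.147), with no filter on low counts (0.181) and over every deposited barcode (0.0553). Its log2 fold change was -4.71 without MMPhigh 1 and -2.25 without MMPhigh 2, and that of Ms4a2 was -2.91 and -4.14.

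Within Ptprc-high clusters, picked by the level of Ptprc (the gene of CD45, a protein of white blood cells), the same 4 genes were called. These are 8 clusters with 2871 and 3021 cells in MMPlow and 558 and 1056 in MMPhigh. They are not white blood cells alone. The unnamed Ccl5-led cluster, whose best marker list was endothelial, gave 575 and 178 MMPlow cells and 0 MMPhigh cells. A megakaryocyte-like cluster of 97 cells, 94 of them from MMPhigh 2, is also among them. Mpo stood at 266, 321, 79.2 and 87.0 CPM in MMPlow 1, MMPlow 2, MMPhigh 1 and MMPhigh 2 (log2 -1.51, SE 0.131, edgeR adjusted p = 0.000284). Cpa3 stood at 58.9, 63.6, 8.28 and 1.91 (log2 -3.58, SE 0.512, edgeR adjusted p = 0.00170). Ms4a2 stood at 5.95, 5.02, 0 and 0.637 (log2 -3.30, SE 0.621, edgeR adjusted p = 0.00492), and Gzmb was at least 30.1-fold lower (edgeR adjusted p = 0.00513), or at least 7.40-fold without MMPhigh 2 and 14.0-fold without MMPlow 2. Here 46.4% of the 14871 genes tested were called and 23.6% were called as lower (22.8% as higher; 53.9% had an unadjusted p under 0.05). In this fit Elane was at -0.25 and Prtn3 at -0.28 (edgeR adjusted p = 0.759 and 0.342). The Cpa3 call was lost without MMPlow 1 (edgeR adjusted p = 0.0808), with the replicate block (0.102) or with no filter on low counts (0.150). Its log2 fold change was -4.69 without MMPhigh 1 and -2.55 without MMPhigh 2. That of Ms4a2 was -2.77 without MMPhigh 1, and without MMPhigh 2 no UMI of Ms4a2 was left in MMPhigh. Without MMPhigh 1, 6 of 8 members and 33.8% of all genes were called, among the members Elane at -1.56 and Ctsg at -2.33. Without the granulocyte-like cells, 7 of 7 members and 46.7% of all genes were called. Progenitor-like cells were 593 of the 2871 and 697 of the 3021 Ptprc-high cells of MMPlow, and 4 of the 558 and 24 of the 1056 of MMPhigh, and their part in the lower levels was not tested.

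Shares of cells gave no difference that this design could call. Cells that held the neutrophil-type group only were 794 of 16698 (4.76%, exact interval 4.44 to 5.09%) and 1058 of 18583 (5.69%, 5.36 to 6.04%) in MMPlow, and 122 of 4403 (2.77%, 2.31 to 3.30%) and 161 of 3418 (4.71%, 4.02 to 5.47%) in MMPhigh. The difference in means was -1.48 percentage points (exact two-sided permutation p = 0.333, the smallest that 2 libraries against 2 allow). With every cell thinned to 2000 UMIs the means were 2.73% in MMPlow and 1.16% in MMPhigh, and no cell was too shallow to be thinned. Where at least 5 summed UMIs defined a cell, the order turned, with 1.90% in MMPlow and 3.47% in MMPhigh (exact permutation p = 0.667). Mast-type genes alone were held by 22 and 31 MMPlow cells (0.132% and 0.167%) and by 0 of 4403 and 0 of 3418 MMPhigh cells, which allows shares of cells with these UMIs of up to 0.0681% and 0.0878% by the limit of 3 cells. The permutation p was again 0.333. Cells with both groups were 0.0359% and 0.0807% in MMPlow and 0% and 0.0585% in MMPhigh (exact permutation p = 0.667). Thinned to 2000 UMIs, the mean share with both was 0.00838% in MMPlow and 0% in MMPhigh (exact permutation p = 0.333), and 3 of the 23 cells still held both, so the count of such cells depends on depth. Among Ptprc-high cells thinned to 2000 UMIs, a share added after seeing the data, the neutrophil-type group was held by 10.3% in MMPlow and 2.66% in MMPhigh (exact permutation p = 0.333).

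Genes of related lists were counted in the same fits, set beside the median log2 fold change over all genes of 0.012 in all retained cells and -0.0093 in Ptprc-high clusters. They are to be read against the 26.5% of all genes called as lower and 27.2% called as higher in the first fit. The lists of secondary granule, eosinophil and mast cell genes had more members lower than higher. A gene near 0 in MMPhigh could pass the low-count filter only through MMPlow, and could then be counted only as lower. Of 13 secondary and tertiary granule genes tested over all retained cells, 9 were lower and 1 higher in MMPhigh (median -2.31), from Ltf at -6.06 to Cybb, an oxidase subunit shared with macrophages, at 1.09. Of 9 eosinophil genes 7 were lower and none higher (median -2.66), from Il5ra, the IL-5 receptor, at -3.66. Of 12 mast and basophil genes 8 were lower and 3 higher (median -1.15), with Cd200r3 lowest at -2.58 and Tph1, a serotonin-making enzyme, highest at 1.82. Of 6 cytotoxic and natural killer genes 3 were lower, with Ncr1 lowest at -4.17. Primary granule genes were mixed, with 6 of 15 lower and 5 higher (median -0.51), from Gfi1 at -2.04 to Cebpa at 1.15, both regulators of granulocyte fate. Of 9 granule protease inhibitors 7 were lower and 2 higher, from Stfa2 at -6.33 to Serpina1a at 1.80. Monocyte and macrophage genes ran the other way, with 9 of 12 higher and 1 lower (median 1.35), from Ly6c2 at -1.43 to the complement gene C1qc at 2.47. Of 12 stem and progenitor genes 7 were lower and 2 higher (median -0.79), with Cd34 at -3.10 and Spi1, the gene of PU.1, at 1.08. Of 10 cell division genes 1 was lower (Top2a at -0.38) and 2 were higher (Ccnb1 at 0.60).

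Within Ptprc-high clusters, where 23.6% of all genes were called as lower and 22.8% as higher, some lists gave other counts. There 8 of 12 secondary granule genes, 5 of 5 eosinophil genes, 8 of 11 mast and basophil genes and 10 of 12 stem and progenitor genes were lower in MMPhigh. By contrast 9 of 11 monocyte and macrophage genes were higher. The filter left 5 of 9 eosinophil genes and 11 of 20 mast and basophil genes, and members near 0 in MMPhigh passed it only through MMPlow. Such members could be counted only as lower. Ltf stood at -5.98, Cyp11a1 was lowest of the mast and basophil list at -3.94 (1 UMI in each MMPhigh library) and Hpgds, a prostaglandin synthase also found in macrophages, highest at 1.57. Mecom was lowest of the stem and progenitor list at -4.22. Of 15 primary granule genes 3 were lower and 5 higher, with Fcnb at -1.45 and Cebpa at 1.76. None of the 3 cytotoxic genes tested there was called by edgeR, against 3 of 6 over all retained cells. Of 8 inhibitors 3 were lower and 1 higher, and of 10 cell division genes 5 were higher and 1 lower. Several of these genes define cell classes whose numbers differ between the fractions, and their part in the member results was not tested.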

How the data were processed

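Single-cell RNA was measured with a 10x 3' v3 kit in 4 libraries, 2 of each TMRM fraction. The authors deposited whole-number UMI counts per gene and barcode, made by Cell Ranger 7.0.1 per the file headers, while the submitters' processing notes name Cell Ranger 2.1.1 and the mm10 build. Whether intronic reads were counted and how reads shared by similar genes (Mcpt and Stfa families) were treated is not given in the sources used here. The 10 genes and the gene lists were chosen with earlier results of these data known, and the split of granulocyte-like cells by Mpo was added after values were seen.

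Barcodes with at least 2000 UMIs, 1000 genes and under 25% of UMIs from 13 mitochondrial genes were kept, and Scrublet's 2, 996, 0 and 68 calls were removed. Scrublet was taken not to have worked in MMPlow 1 and MMPhigh 1. Clusters used 1985 variable genes without the 10 members, 30 components, 15 neighbours and Leiden resolution 1 (scanpy 1.11.5, Python 3.11.15). They were named from fixed markers, with thresholds set after the clusters were seen. Names may differ from the study's own. A cell held a group when at least 2 of its 5 genes had a UMI. Counts summed per library were tested with edgeR 4.0.16 (quasi-likelihood, Benjamini-Hochberg adjustment over all genes tested, threshold 0.05) in R 4.3.3, and shares by exact permutation. Intervals and floors (3 counts) cover counting error only. Tested on made-up changes of 1.5 and 3 (log2), the fit recovered 94% and 100% over all retained cells (20517 genes). In Ptprc-high clusters (14871 genes) it recovered 89% and 99%. The made-up counts gave all genes the same spread and changed only 100 genes at each size. These shares therefore do not carry over to sparse or uneven members such as Elane, Ms4a3 and Ctsg. Genes were named by rule: the 10 members, up to 8 genes that correlate with a group at 0.3 or more, the highest and lowest called member of each list, and the 3 highest of each list in the cells described. Exceptions, picked after their values were seen, are the genes set beside Mpo in granulocyte-like cells, those set beside Mpo and Cpa3 in progenitor-like cells, and members of a list named for having no UMI. Alternatives changed normalization, the low-count filter, cell filters, doublet removal and each library.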

Additional observations from a re-analysis of the deposited data

How the results depend on the processing

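Of 267 alternative values, 234 were counted as unchanged, 19 passed the threshold newly and 3 counts moved by over 1.5 times. Not all of the 234 were tried at the threshold. Shares of cells gave 14 (neutrophil-type only), 15 (mast-type only) and 13 (both groups) of them. The exact permutation p of a share cannot fall below 0.333, and none was given with 1 library left out. No share could therefore pass 0.05. Counts of called members, 11 in each of the 2 sets of cells, were judged by the 1.5 times rule. Another 9 were weaker, all of them lost calls of Cpa3 but for 1 share of cells, and 2 shares changed sign. Genes called in neither fit were kept among the 234 even where their sign changed. With 1 library left out, Elane and Ctsg reached 0.258 and 0.915 over all retained cells, from negative values. In Ptprc-high clusters Elane, Ctsg, Ms4a3 and Prtn3 reached 0.593, 1.15, 0.284 and 0.0809. Mpo, Ms4a2 and Gzmb were called in every alternative that gave a value (13, 13 and 12 over all retained cells, 12, 12 and 11 in Ptprc-high clusters). The count of called members changed with the library left out, and those fits rest on 1 library in a group. Without the granulocyte-like cells the count was 8 over all retained cells and 7 in Ptprc-high clusters, with 53.8% and 46.7% of all genes called. In any such count Gzmb and Cma1, where they were tested, had 0 UMIs in MMPhigh and could pass the low-count filter only through MMPlow. Cpa3's adjusted p (edgeR or DESeq2) ran from 4.21e-11 to 0.214 over all retained cells and from 3.44e-06 to 0.150 in Ptprc-high clusters. The share of cells with neutrophil-type genes only, 1.48 percentage points lower in MMPhigh, turned to 1.57 points higher when at least 5 summed UMIs defined a cell (exact permutation p = 0.667), and lay between -2.45 and -0.51 with 1 library left out. For mast-type genes only it lay between -0.167 and -0.132. For both groups it lay between -0.0583 and 0.000188, the last without MMPhigh 1, and was 0 (exact permutation p = 1) when 3 of 5 genes were asked for. The causes were not tested. With the replicate number as a block, 4 members were called over all retained cells, with Prtn3 gained (edgeR adjusted p = 0.0376) and Cpa3 lost (0.147), and 3 in Ptprc-high clusters, with 54.1% and 43.1% of all genes called. The correlation of deviations between same-numbered libraries was 0.121 and -0.0692. With 2 pairs and no label that ties the numbers, whether they pair the libraries cannot be told. A lone library of a group was assumed to vary like the other group's. Depth limits the rare genes: Ctsg, Cma1, Gzmb and Ms4a2 each had from 17 to 232 UMIs in all.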
